A study of Mus musculus with 4 samples.

Results

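Transcripts that mark neutrophils and their bone marrow precursors were followed in the nasal mucosa of young adult and aged mice. The genes were 3 precursor granule genes (*Elane*, *Mpo* and *Prtn3*) and 7 mature neutrophil genes (*Ngp*, *Camp*, *S100a8*, *S100a9*, *Ly6g*, *Retnlg* and *Lcn2*). They were found on the array through the RefSeq accession of each non-control probe. Of the 10 genes, 9 had a probe, among 45616 genes tested, and these 9 were read by 10 probes because *Lcn2* had 2. No probe's accession matched *Ly6g*. RNA came from the nasal mucosa of male C57BL/6J mice, labelled olfactory epithelium, at 8 weeks (young adult) or 16 months (aged), with no gene altered in either group. Each age had 2 pools of RNA from 5 mice, and each pool was hybridised with Cy3 to 1 one-color Agilent array, giving 4 arrays in all. A sample description that speaks of silica in the lung contradicts the titles and the tissue label and was not used.

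A neutrophil makes its granules in sequence. Promyelocytes in the marrow transcribe the proteases and the peroxidase of the azurophil granules (*Elane*, *Prtn3*, *Mpo*), and this transcription ends as the cell matures, while later stages transcribe the antimicrobial proteins of the specific and gelatinase granules (*Ngp*, *Camp*, *Lcn2*) and then the abundant cytosolic pair *S100a8* and *S100a9*. A circulating neutrophil therefore carries much azurophil granule protein but little of its messenger RNA. Some of the mature genes are also transcribed elsewhere, *Lcn2* by stimulated epithelium and *S100a8* and *S100a9* by monocytes and keratinocytes.

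The tissue was a mixture. All 14 genes of an olfactory mucosa list, which holds *Omp*, the marker of mature olfactory neurons, were well above background on all 4 arrays. So were 8 of 10 bone-forming genes. Of the non-control spots, 63.1% to 76.8% were well above the local background, and none was saturated. Arrays of the same age correlated at r = 0.987 and arrays of different ages at 0.982 to 0.989, so the arrays did not group by age. Array 1 of each age shared a slide, and the other arrays had slides of their own. The median local background was 67 (young adult) and 63 (aged) on the shared slide, against 32 and 39 on the others. Nothing in the labels says whether the pools of an age share animals, and the study's methods give fewer mice for gene work than separate pools would need, so every test compares the spread between these pools only. In such bulk RNA, fewer cells of a type and less RNA per cell cannot be told apart.

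The sequences just before the start sites of the genes whose behaviour is contrasted here are shown first, so that the 2 stages can be compared in what they share. PU.1 is an ETS family factor of myeloid cells and C/EBP factors act through granulocyte maturation. Each line holds the 250 bases upstream of the annotated start in RefSeq's GRCm38.p6, 5′ to 3′ in the direction of transcription, and capitals mark GAGGAAGT, a PU.1 (ETS family) core, on either strand.
*Elane* (chr10:79886062-79886311, plus strand): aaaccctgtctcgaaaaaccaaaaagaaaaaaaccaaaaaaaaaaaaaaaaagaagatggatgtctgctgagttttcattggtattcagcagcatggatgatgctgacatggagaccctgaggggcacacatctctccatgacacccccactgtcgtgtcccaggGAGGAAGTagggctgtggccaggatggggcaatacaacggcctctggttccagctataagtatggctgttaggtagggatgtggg
*Prtn3* (chr10:79879417-79879666, plus strand): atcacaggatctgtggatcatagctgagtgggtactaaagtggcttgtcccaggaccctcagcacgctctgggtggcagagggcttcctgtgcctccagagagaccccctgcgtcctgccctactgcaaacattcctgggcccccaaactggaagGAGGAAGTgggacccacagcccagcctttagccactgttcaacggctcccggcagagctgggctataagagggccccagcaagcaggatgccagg
*Mpo* (chr11:87793534-87793783, plus strand): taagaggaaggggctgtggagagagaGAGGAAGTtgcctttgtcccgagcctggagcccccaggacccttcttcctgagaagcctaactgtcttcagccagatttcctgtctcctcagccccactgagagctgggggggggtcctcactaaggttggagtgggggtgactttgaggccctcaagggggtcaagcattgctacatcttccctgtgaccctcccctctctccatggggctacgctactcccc
*S100a8* (chr3:90668821-90669070, plus strand): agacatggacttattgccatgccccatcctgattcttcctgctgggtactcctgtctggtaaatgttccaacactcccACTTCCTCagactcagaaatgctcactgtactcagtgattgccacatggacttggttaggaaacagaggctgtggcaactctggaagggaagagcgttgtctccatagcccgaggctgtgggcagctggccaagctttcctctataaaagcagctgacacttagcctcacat
*S100a9* (chr3:90695722-90695971, minus strand): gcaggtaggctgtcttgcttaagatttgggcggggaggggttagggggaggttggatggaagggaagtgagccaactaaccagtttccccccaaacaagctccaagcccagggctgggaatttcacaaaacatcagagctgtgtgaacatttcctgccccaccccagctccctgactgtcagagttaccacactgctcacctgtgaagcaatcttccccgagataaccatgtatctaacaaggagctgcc
*Lcn2* (chr2:32387740-32387989, minus strand): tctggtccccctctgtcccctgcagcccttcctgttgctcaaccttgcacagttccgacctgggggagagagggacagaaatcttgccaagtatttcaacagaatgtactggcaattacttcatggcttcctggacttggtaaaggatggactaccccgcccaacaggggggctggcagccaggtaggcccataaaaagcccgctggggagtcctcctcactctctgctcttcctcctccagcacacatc

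GAGGAAGT lay in the windows of all 3 precursor genes, always read in the direction of transcription, against 2.44% of the 32851 RefSeq windows of this length. It began 85 bases before the start in *Elane*, 95 in *Prtn3* and 224 in *Mpo*. Among the 7 mature genes it was present in *S100a8*, on the opposite strand, and in *Ly6g*. These letters were chosen after the sequences had been read, so their presence is a description and not a test. A C/EBP core, TTNCNNAA on either strand, was present in 6 of the 7 mature genes (*Lcn2*, *Ly6g*, *Ngp*, *Retnlg*, *S100a8* and *S100a9*) and in 0 of the 3 precursor genes, where 36.8% of all windows hold it. Neither an AP-1 site (TGANTCA, in 6.75% of windows) nor any overlap between the PU.1 and C/EBP matches was found in the 10 genes, and TATAAA (in 12.4% of windows) was present in *S100a8* and *Ly6g*. A match of letters is no evidence of binding, and the absence of one says only that these letters are not in this window. Several of the genes lie side by side: *Prtn3* and *Elane* are adjacent on chromosome 10, *S100a8* and *S100a9* on chromosome 3, and *Mpo* is next to *Lpo*, which encodes another peroxidase, on chromosome 11.

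The comparison of 16 months with 8 weeks asks how each stage of the neutrophil lineage was represented in the mucosa at each age. In the aged pools *S100a8*, *S100a9*, *Retnlg* and *Ngp* fell and *Lcn2* rose, *Camp* missed the threshold, and none of the 3 precursor genes passed the test. A gene was called when limma's moderated test gave a P value under 0.05 and a false discovery rate (FDR, Benjamini-Hochberg over all 45616 genes) under 0.25. The study's criteria for a differentially expressed gene (DEG) add a mean normalized intensity of at least 100 and a fold of at least 1.5. Of the 9 genes, 4 were called lower and 1 higher in aged mucosa, beside 2.33% and 1.65% of all genes tested. By the DEG criteria 3 were lower and 1 higher, beside 1.15% and 0.813%. The aged values were both under the young adult values in 6 of the 9 genes and above them for 1, beside 21.8% and 24.2% of all genes. The median log2 difference, aged minus young adult, was -0.18 over the 3 precursor genes and -0.73 over the 6 mature genes on the array, where the median of all genes was 0.01. The precursor median rested on single arrays, at -0.34 without young adult array 1 and -0.01 without young adult array 2.

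**Figure D1:**
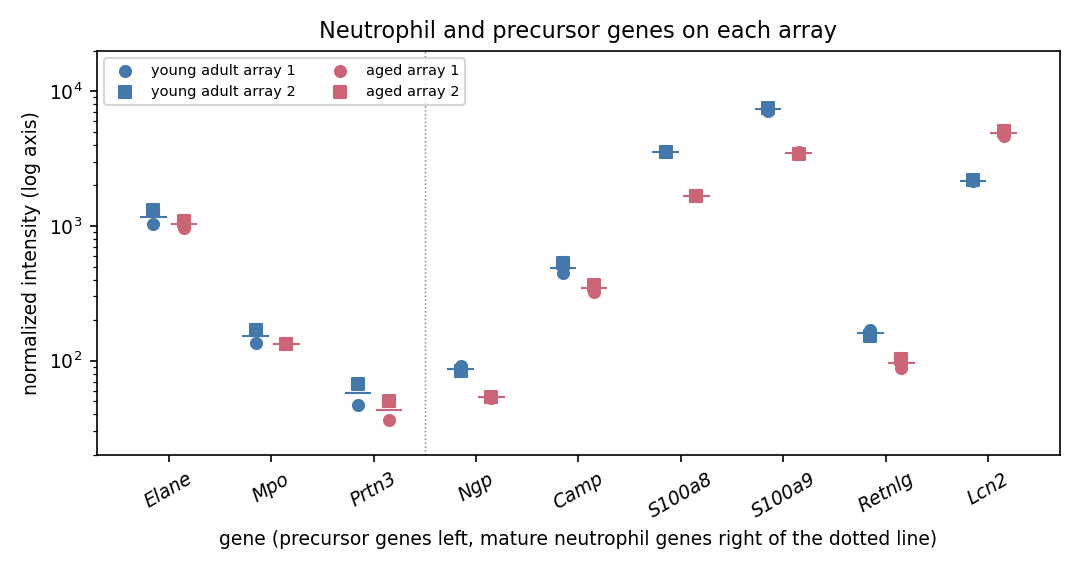
Normalized intensity (log axis) of the 9 genes on each of the 4 arrays, with circles for array 1 and squares for array 2 of each age and a line at each age's mean. The aged arrays of *S100a8* and *S100a9* average 1679 and 3474 against 3523 and 7362 in young adults, *Lcn2* runs the other way, and those of *Elane* and *Prtn3* overlap.

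Of the precursor genes, *Elane* encodes neutrophil elastase, a serine protease. It gave a normalized intensity of 1028 and 1305 in young adult pools and of 971 and 1097 in aged ones, and was well above background on all 4. The ages overlapped, since the lower young adult array lay between the aged ones. The means were 1167 ± 196 and 1034 ± 88.9 (SD, n = 2 each), and the log2 difference was -0.17 (SE 0.17, limma FDR = 0.714). Its 95% interval ran from -0.66 to 0.33, which holds 0 and leaves out the value of *S100a8* below.

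*Mpo* encodes myeloperoxidase, the enzyme that makes hypochlorous acid in the azurophil granule. Its intensities were 135.4 and 169 in young adult pools and 135.0 and 133 in aged pools, all well above background. The aged values were below both young adult values, but the closest pair, which shared a slide, was practically equal. The log2 difference was -0.18 (SE 0.14, 95% interval -0.61 to 0.26, limma FDR = 0.663), and within the shared slide it was -0.004. *Prtn3*, for proteinase 3, was the dimmest of the 9 genes, at 46.8 and 67.7 in young adult and 36.5 and 50.03 in aged pools. The ages overlapped, and only 1 of the 2 aged arrays was well above background. On that gene's spot the signal before any correction was 85.5 and 76 in the aged arrays over local backgrounds of 72 and 48. Its log2 difference of -0.40 (SE 0.28) had the widest interval of the 9 genes, -1.23 to 0.44 (limma FDR = 0.618), which holds both 0 and the value of *S100a8*.

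Among the mature genes, *S100a8* and *S100a9* encode the subunits of calprotectin, which binds calcium and starves microbes of zinc and manganese. *S100a8* gave 3530 and 3515 in young adult pools and 1687 and 1671 in aged pools. *S100a9* gave 7201 and 7524 against 3523 and 3424. In both genes the ages were far apart and the arrays of an age nearly equal. *S100a8* fell 2.10-fold (log2 difference -1.07, SE 0.07, 95% interval -1.29 to -0.85, limma FDR = 0.178). *S100a9* fell 2.12-fold (log2 difference -1.08, SE 0.08, 95% interval -1.32 to -0.85, limma FDR = 0.178). On the shared slide the differences were -1.06 and -1.03. Their intervals do not meet those of *Elane* and *Mpo*, but the difference between genes was not itself tested.

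*Retnlg*, resistin-like gamma, a secreted protein of neutrophils and marrow, was at 168 and 152 in young adult and 88.7 and 102 in aged pools. The ages were apart, and 1 of the 2 aged arrays was well above background. It fell by 0.75 on the log2 scale (SE 0.12, 95% interval -1.11 to -0.38, limma FDR = 0.225), and the shared slide gave -0.92. *Ngp*, neutrophilic granule protein, a cystatin-like protein of the specific granules, was at 91.3 and 83.7 in young adult and 52.8 and 53.8 in aged pools. It fell by 0.71 (SE 0.09, 95% interval -0.98 to -0.45, limma FDR = 0.200), with 1 of 2 aged arrays well above background, and its mean of 70.4 over the 4 arrays kept it out of the DEGs. *Camp*, the precursor of the antimicrobial peptide CRAMP, was at 450 and 528 against 326 and 366. The aged arrays lay below the young adult ones, with a log2 difference of -0.50 (SE 0.13, 95% interval -0.89 to -0.10, limma FDR = 0.313), and this FDR missed the threshold.

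*Lcn2* encodes lipocalin-2, which binds the siderophores by which bacteria take up iron. It ran against the other mature genes, at 2151 and 2195 in young adult and 4688 and 5068 in aged pools. It rose 2.24-fold (log2 difference 1.17, SE 0.09, 95% interval 0.91 to 1.42, limma FDR = 0.178), and the shared slide gave 1.12. Its 2 probes gave 1.21 and 1.12, each with both aged arrays above both young adult ones. The rise therefore does not rest on 1 probe.

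**Figure D2:**
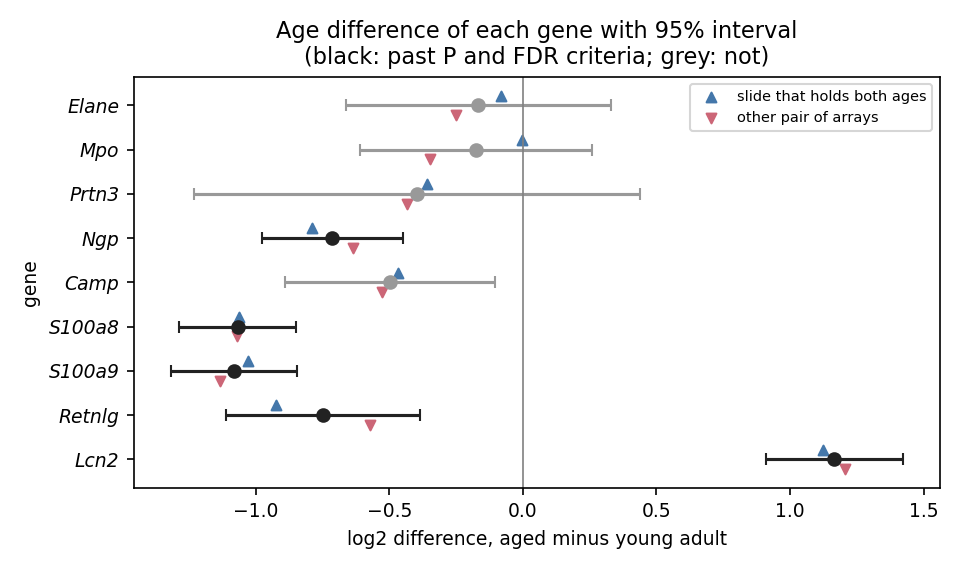
Log2 difference, aged minus young adult, of the 9 genes with the 95% interval of limma's fit, black where the gene passed the P and FDR criteria and grey where not. Triangles give the difference within the slide that held both ages (pointing up) and between the other pair of arrays (pointing down), which had the same sign in all 9 genes.

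The balance between the stages was followed on each array by taking the mean log2 intensity of the 6 mature genes minus that of the 3 precursor genes. Brightness differs between probes, so the size of this difference has no meaning and only its change between arrays does. It was 2.19 and 1.79 in young adult pools and 1.81 and 1.68 in aged pools, and the ages overlapped. Without *Lcn2*, the mature gene that ran the other way, it was 1.92 and 1.52 against 1.21 and 1.08, and the ages did not overlap. *Lcn2* was set aside after its values were seen, so the second set of values is a description with no test. The mean log2 intensity of the precursor genes, centred on the 4 arrays, was highest on young adult array 2 (0.32) and lowest on aged array 1 (-0.23). *Elane* and *Prtn3* were both highest and both lowest on those arrays, while *Mpo* was highest on young adult array 2 and lowest on aged array 2. The 5 genes nearest to that profile, of 25476 compared over the 4 arrays, lay at a Euclidean log2 distance of 0.016 to 0.026. Of them 1, *Clpsl2*, had a RefSeq symbol. No gene of the granulocyte lists was among the 5, but 5 of 25476 genes are too few for that absence to tell anything about those lists.

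**Figure D3:**
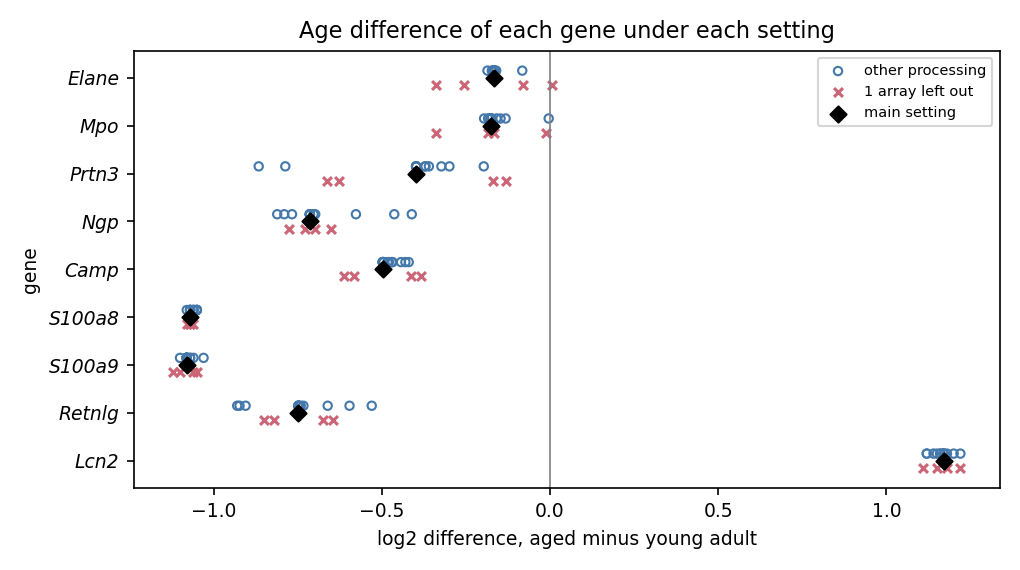
Log2 difference of each gene in the main setting (diamond), under other processing (open circles) and with 1 array left out (crosses). *S100a8* stays between -1.08 and -1.05, *S100a9* between -1.12 and -1.03 and *Lcn2* between 1.11 and 1.22, while *Prtn3* spreads from -0.87 to -0.13 and *Elane* from -0.34 to 0.01.

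With 2 arrays an age the calls are fragile. When any 1 of the 4 arrays was left out, 0 of the 9 genes were called by limma, although 5 or 6 of them had an unadjusted P under 0.05 and each called gene kept its sign.

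The wider lineage was read through further gene lists. Of 12 other genes of early granulocytes, which include *Myb*, *Gfi1* and *Cebpe*, regulators of the progenitor and promyelocyte stages, 0 were called by limma in either direction, and at an unadjusted P under 0.05 the count was 2, beside 13.1% of all genes tested. Their median log2 difference was -0.14. It lay between -0.07 and -0.03 with other offsets of the background correction or none, and at -0.03 with the most intense probe per gene. On the scanner software's processed signal with quantile normalization it was -0.21. The largest differences among those well above background were in *Cebpe*, the C/EBP factor of the later granule genes (102 and 94.8 against 57.5 and 76.9, log2 difference -0.57, FDR = 0.367), *Igsf6* (296 and 348 against 211 and 240, -0.51, FDR = 0.312) and *Clec12a*, an inhibitory myeloid receptor (2579 and 2257 against 2060 and 1994, -0.25, FDR = 0.453). In these 3 the aged arrays lay below the young adult arrays without passing the test. *Ms4a3*, *Fcnb* and *Prss57*, named after their values were seen, did not stand well above background anywhere, so the array shows nothing of them.

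Genes of the specific and gelatinase granules moved in both directions. Of 19 on the array, 4 were lower and 1 was higher in aged mucosa, beside 2.33% and 1.65% of all genes tested. The median log2 difference of the 19 was -0.34. *Cd177*, a surface protein of neutrophils, went from 273 and 266 to 121 and 97.0 (log2 difference -1.31, SE 0.14, limma FDR = 0.188). *Pglyrp1*, a peptidoglycan recognition protein that kills bacteria, went from 18836 and 17523 to 8117 and 7304 (-1.24, SE 0.10, limma FDR = 0.178). *Mmp9*, gelatinase B, went from 444 and 451 to 230 and 174 (-1.16, SE 0.17, limma FDR = 0.211). These 3 fell 2.24- to 2.48-fold with no overlap of the ages, and *Mmp9* is also a product of osteoclasts. *Ltf*, lactoferrin, which nasal glands secrete as well, fell from 265972 and 254071 to 167851 and 158251 (-0.67, limma FDR = 0.201). *Chil3*, a chitinase-like protein of neutrophil precursors, macrophages and airway epithelium, ran the other way like *Lcn2*, from 746 and 724 to 6271 and 6775. That was an 8.87-fold rise (log2 difference 3.15, SE 0.09, 95% interval 2.89 to 3.41, limma FDR = 0.126).

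Of 29 genes of circulating neutrophils, 5 were lower and 0 were higher, beside 2.33% and 1.65% of all genes tested. The median log2 difference of the 29 was -0.22. The aged arrays lay below the young adult arrays in 16 and above them in 4, beside 21.8% and 24.2% of all genes, and overlapped in 9. Summed intensity did not fall, at 133695 and 127291 in young adult and 137205 and 137291 in aged pools. Most of that sum was *Csf3r*, at 118515 and 112220 against 123782 and 123786 (log2 difference 0.10, limma FDR = 0.646). *Itgb2*, the β2 integrin chain of all leukocytes, went from 391 and 448 to 244 and 253 (-0.75, SE 0.11, limma FDR = 0.209). *Selplg*, the ligand of P-selectin, and *G0s2*, an inhibitor of lipolysis, fell by 0.58 and 0.57 (limma FDR = 0.210 and 0.234). *Mrgpra2a*, a receptor of neutrophils, was well above background on 1 young adult array and on neither aged array. It was at 53.2 and 47.9 in young adult and 26.3 and 30.3 in aged pools. Its log2 difference of -0.84 (limma FDR = 0.210) is thus of uncertain size. *Itgb2* and *Selplg* are carried by lymphocytes and monocytes too.

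Signals that draw or sustain neutrophils gave few calls. Of 22 genes of recruitment and growth, 1 was lower and 1 higher, beside 2.33% and 1.65% of all genes tested. Their median log2 difference was -0.23, or -0.15 without young adult array 2. *Cxcl5*, an epithelial chemokine for neutrophils, went from 3485 and 3808 to 1985 and 2124 (-0.83, SE 0.10, 95% interval -1.11 to -0.54, limma FDR = 0.191). *Csf2*, the growth factor GM-CSF, went from 176 and 183 to 317 and 328 (0.84, SE 0.08, 95% interval 0.61 to 1.08, limma FDR = 0.178). In both the ages were clearly apart. *Csf3*, *Cxcl2*, *Cxcl3*, *Il17a* and *Il23a*, named after their values were seen, did not stand well above background anywhere.

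Relatives of the named genes did not share 1 direction. The list had 27 peroxidase, protease, resistin, Ly6, S100, lipocalin and cystatin relatives on the array. Of these, 4 were lower and 2 were higher, beside 2.33% and 1.65% of all genes tested. The median log2 difference of the 27 was -0.09, or -0.17 without young adult array 1 and -0.22 without aged array 2. *S100a4*, a calcium-binding protein of fibroblasts and leukocytes, fell 2.25-fold, from 33209 and 34126 to 15339 and 14576 (log2 difference -1.17, SE 0.08, limma FDR = 0.178). The called lipocalin relatives were lower, where *Lcn2* was higher: *Ptgds*, prostaglandin D synthase, by -0.66, and the gland lipocalins *Lcn4* and *Lcn11* by -0.63 and -0.54 (limma FDR = 0.198 to 0.206). *Cfd*, complement factor D, near *Elane* on its chromosome, rose by 0.64 (limma FDR = 0.210). *Lpo* was not called, with a log2 difference of 0.05.

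**Figure D4:**
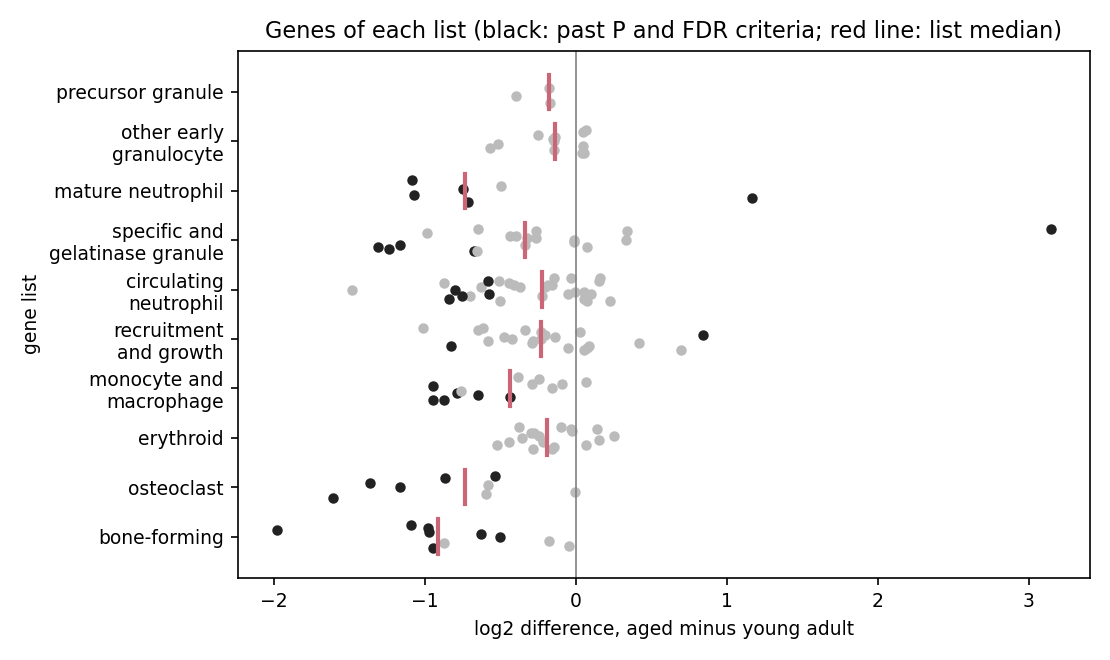
Log2 difference, aged minus young adult, of each gene on the array in 10 lists, black where it passed the P and FDR criteria, with a red line at the list's median. The medians run from -0.14 for other early granulocyte genes to -0.91 for bone-forming genes, and *Chil3* (3.15) and *Lcn2* (1.17) stand apart on the right.

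Several markers of monocytes, macrophages, bone and osteoclasts were lower in the same arrays as most of the mature neutrophil genes. Of all genes tested, 2.33% were called lower and 1.65% higher. Of 13 monocyte and macrophage genes, 6 were lower and 0 higher in aged mucosa (median log2 difference -0.43), among them *Ms4a7* (-0.95), *Cx3cr1* (-0.94) and *Cd68* (-0.78). All 13 were well above background, and their summed intensity was 37578 and 36506 in young adult and 33745 and 31368 in aged pools. The largest part of that sum was *Ly6c2*, which was not called and whose ages overlapped. It was at 21830 and 20540 against 21116 and 18773 (log2 difference -0.09, limma FDR = 0.755). Of 10 bone-forming genes, 7 were lower and 0 higher (median -0.91), with summed intensities of 70818 and 66669 against 25364 and 25305. Of 8 osteoclast genes, 5 were lower and 0 higher (median -0.73), with sums of 52961 and 52447 against 18458 and 18297. This median ran from -1.05 to -0.51 with other processing and was -0.92 without young adult array 1. The called *Mmp9* is counted here and among the granule genes above. Bone encloses the marrow in which granulocyte precursors live. The called bone and osteoclast genes included *Col1a1* (-1.98), *Acp5* (-1.61), *Ctsk* (-1.36) and *Ibsp* (-1.09). *Col1a1* is part of the bone-forming sums but is not particular to bone. The paper saw cells with a type I collagen reporter mainly in the lamina propria, at lower density in aged mice. Of 18 erythroid genes 0 were called by limma in either direction (4 at an unadjusted P under 0.05, beside 13.1% of all genes), their median was -0.19, and both aged sums lay below the young adult ones, at 57643 and 63603 against 70397 and 74724. *Hba-a2*, the brightest of them, had a log2 difference of -0.28 (limma FDR = 0.482). Of 11 genes of blood progenitors 1 was lower, *Kit*, the receptor of stem cell factor (-0.60, limma FDR = 0.216), while *Ptprc*, the pan-leukocyte antigen CD45, was at -0.50 and not called (limma FDR = 0.278). The part of these cells in the differences of the neutrophil genes was not tested.

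Genes of epithelium, which can also transcribe *Lcn2*, were read the same way, beside 2.33% of all genes called lower and 1.65% called higher. Of 13 genes of squamous and secretory epithelium, 1 was lower and 2 were higher, with a median of 0.00 that ran from -0.06 to 0.07 when 1 array was left out (-0.06 and -0.04 without array 2 of the young adult or aged pools, 0.07 and 0.05 without array 1). *Muc5ac*, a gel-forming mucin of goblet cells, fell by 2.10 and *Muc5b*, the mucin of glands, rose by 0.44 on the log2 scale. *Sprr1b*, a cornified envelope protein, was 2.32-fold higher in aged pools with dim young adult values raised to the dimmest signal that counts as measured. The summed intensity of the list overlapped between the ages, at 653315 and 649539 against 632637 and 664941. Of the 14 olfactory mucosa genes, 1 was lower and 1 higher, with a median of 0.07 (0.01 without young adult array 1, 0.03 without aged array 1, 0.11 without young adult array 2). The part of epithelium in the rise of *Lcn2* was not tested.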

How the data were processed

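RNA of 4 pools, 2 an age, was hybridised to Agilent one-color arrays. The deposited scanner files, written with Feature Extraction 11.0.1.1, hold the linear intensity of 62976 spots an array, and the deposited value table repeats the software's processed intensity. The genome build of the array design is mm9:NCBI37:Jul2007, so no probe coordinates are given.

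Background was corrected by normexp (offset 0) on the median signal and background of all spots with limma 3.58.1 in R 4.3.3, since the study names limma but not the correction. Control and flagged spots were dropped, spots of a probe averaged on the log2 scale, arrays quantile normalized and probes averaged per gene. Accessions were matched to RefSeq symbols of GRCm38.p6 (32994 of 56605 probes, 58.3%), and others kept the file's name. Per the deposited files no count or read depth exists, and the number of arrays limits the precision. limma's lmFit and eBayes compared the ages on 4 arrays, with 2 residual degrees of freedom and 1.38 from the prior. An exact two-sided permutation test of 2 against 2 cannot go below P = 0.333, so none was run.

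The genes and gene lists were chosen with earlier results of these data known. Named are all 10 genes, and of the granulocyte, recruitment and relatives' lists each called gene or, with none called, the 3 largest differences above background. Of marker lists at most 4 genes are named. Exceptions are marked as named after their values were seen. Some genes that the rule would name are counted but not reported here. The test was tried on simulated data. Alternatives were other background corrections, scalings, filters, gene summaries and variance priors, a replicate block, the shared slide alone and leaving out each array.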

Additional observations from a re-analysis of the deposited data

How the results depend on the processing

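Of the 9 genes, the 5 that were called kept their sign under all 17 alternatives tried, where *S100a8* ranged from -1.08 to -1.05, *S100a9* from -1.12 to -1.03 and *Lcn2* from 1.11 to 1.22. Of the genes that were not called, *Elane* turned to 0.00527 without young adult replicate 2. The median of the mature genes (-0.73) moved with the background correction, to -0.619 and -0.487 at normexp offsets of 16 and 50 and -0.533 with no correction, and with the scanner software's processed signal, to -0.87 after 75th percentile scaling and -0.836 after quantile normalization. *Camp* passed the threshold in limma at offset 50 (-0.443), with no correction (-0.471), on processed signal with quantile normalization (-0.43), among well detected probes only (-0.497) and with an intensity trend (-0.497). *Retnlg* lost its call on processed signal (-0.93 and -0.905), and *Ngp* under 75th percentile scaling (-0.698). On the slide that held both ages, without a test, *Mpo* was at -0.00395, *Ngp* at -0.79, *S100a9* at -1.03, *Retnlg* at -0.923 and the mature median at -0.857.

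Leaving out each array in turn gave 0 calls lower or higher, by the P and FDR criteria and by the DEG criteria, with 1 age then resting on a lone array assumed to vary like the others. The ranges were -0.34 to 0.01 for *Elane*, -0.34 to -0.01 for *Mpo*, -0.66 to -0.13 for *Prtn3*, -0.78 to -0.65 for *Ngp*, -0.61 to -0.38 for *Camp*, -1.08 to -1.06 for *S100a8*, -1.12 to -1.05 for *S100a9*, -0.85 to -0.64 for *Retnlg*, 1.11 to 1.22 for *Lcn2*, -0.34 to -0.01 for the precursor median and -0.80 to -0.66 for the mature median. The ages share replicate numbers, but nothing says that a number marks a shared day or litter, and same-numbered arrays did not deviate together (r = -0.08). With the replicate number as a block, limma called 0 genes lower and 0 higher by either set of criteria, with *Ngp* at -0.714, *S100a8* at -1.07, *S100a9* at -1.08, *Retnlg* at -0.748 and *Lcn2* at 1.17 (FDR = 0.433 each), while 7 of the 9 genes had an unadjusted P under 0.05. The cause of these shifts was not tested. *Prtn3*, *Ngp* and *Retnlg* are limited by their signal over background.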

Other observations

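Other granule-bearing blood cells gave no calls. Of 9 eosinophil genes 0 were called by limma (1 at an unadjusted P under 0.05), with a median log2 difference of -0.19 (-0.12 without young adult array 2), and *Epx*, the eosinophil peroxidase, was too dim to be called well above background anywhere. Of 8 genes of mast cells and basophils 0 were called (0 at an unadjusted P under 0.05), with a median of 0.12 (0.02 without young adult array 1). The brightest, the mast cell tryptase *Tpsb2*, was at 398 and 427 in young adult and 425 and 402 in aged pools, a log2 difference of 0.00.

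Of 10 megakaryocyte and platelet genes 2 were lower in aged mucosa, beside 2.33% of all genes tested. The median of the 10 was -0.21, which was -0.39 without young adult array 1, -0.10 without aged array 1 and -0.42 without aged array 2. *Pf4*, platelet factor 4, went from 1816 and 1965 to 1262 and 1363 (-0.53, limma FDR = 0.242), and *Itgb3*, the β3 integrin chain that osteoclasts also carry, from 218 and 230 to 146 and 157 (-0.57, limma FDR = 0.218). The 12 genes of B cell precursors had a median of 0.04 (0.01 without young adult array 2, 0.07 without aged array 1). Of them 1 was higher, beside 1.65% of all genes tested. It was *Vpreb3*, at 10795 and 10003 in young adult and 15692 and 15246 in aged pools (0.57, limma FDR = 0.213). *Rag1*, *Rag2* and *Igll1*, named after their values were seen, did not stand well above background anywhere.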
